A study of Rattus norvegicus with 134 samples.

Results

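This section describes the miRNA of the rat heart at the end of a heat exposure, the moment when core temperature peaked (Tc,max). The members were chosen by the sample labels alone, as heart libraries of that time point, and numbered 11 of the 77 libraries in the deposited table. Heat-stressed rats (n = 6, rats 280 to 285) were conscious rats kept in an incubator at room temperature for 24 h, then warmed there at 37.0 °C until their core reached 41.8 °C, and euthanized at that point. Control rats (n = 5, rats 288, 289, 291, 293 and 294) were euthanized at the matching time. By the labels, control rats stayed at normal housing temperature and never entered the incubator, whereas the study's methods place them in an incubator at room temperature. By the labels, heat and the incubator therefore cannot be told apart. All rats were of 1 inbred strain, and core temperature was read from an implanted probe. Each library was made from 1 heart, and heat-stressed and control rats were different animals.

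A miRNA is a short RNA that is cut from a hairpin precursor and guides a silencing complex to messenger RNAs. The complex finds its targets chiefly through the seed, bases 2 to 8 of the mature strand, so that miRNA with the same seed can share targets. Each hairpin has a 5′ arm and a 3′ arm (5p and 3p), and usually 1 of the arms predominates. The heart is known for miR-1 and miR-133a, which are made in muscle, and for miR-208a, miR-208b and miR-499, which lie within myosin heavy chain genes. miR-126 is made in endothelial cells, and miR-143 and miR-145 in smooth muscle cells. A library of heart tissue mixes all of these, and fewer cells of a type cannot be told apart from less miRNA per cell. By the study's methods a piece was cut from each heart, and the part of the heart is not stated.

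The mature sequences of miRNA that carried most reads, or that mark heart muscle, are shown first, since their levels open the comparison below. They are from RefSeq (build GRCr8), which held a sequence under the same name for 108 of the 185 names in the table. Capitals mark the seed. For miR-133a, miR-208a and miR-208b the levels below are instead those of the names without an arm.
miR-22-3p: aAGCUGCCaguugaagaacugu
miR-143-3p: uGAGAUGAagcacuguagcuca
miR-26a-5p: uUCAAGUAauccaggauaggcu
miR-27b-3p: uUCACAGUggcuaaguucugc
miR-10a-5p: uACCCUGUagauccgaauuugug
let-7f-5p: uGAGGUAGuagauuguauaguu
miR-1-3p: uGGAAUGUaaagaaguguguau
miR-133a-3p: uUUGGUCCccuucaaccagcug
miR-499-5p: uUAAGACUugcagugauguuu
miR-208a-3p: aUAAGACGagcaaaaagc
miR-208b-3p: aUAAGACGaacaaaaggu
The miR-208a-3p and miR-208b-3p seeds are identical. miR-208a-3p (chr15:32395568-32395585, minus strand) lies within the span of Myh6, miR-208b-3p (chr15:32421648-32421665, minus strand) within Myh7 and miR-499-5p (chr3:164570616-164570636, plus strand) within Myh7b. These genes encode myosin heavy chains. miR-22-3p lies at chr10:60805387-60805408 on the plus strand.

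Levels are given as log2(CPM + 1), as deposited, where CPM is the read count scaled to a common library total, so that a difference of 1 is a doubling. The libraries held 237545 to 646567 reads in heat-stressed rats and 341881 to 578029 in controls, with 174 to 184 and 178 to 183 of the 185 names above 0. A count of 3 reads corresponds to 2.50 to 3.77 on this scale, depending on the library. Hearts carried heart miRNA and little of other organs. miR-1-3p lay at 8.69 to 9.74 in heat-stressed and 8.82 to 9.91 in control hearts, against 0 to 0.85 in kidneys of the same time point. miR-122, made in hepatocytes, lay at 0 to 4.56 in heat-stressed and 0 to 3.51 in control hearts, against 12.86 to 13.43 in livers.

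No miRNA was detected as changed in the heart at Tc,max. A total of 159 names passed a minimum of 5 reads in every library of at least 1 group. limma's treat test against a fold change of 25% gave 0 of the 159 at an FDR of 0.05 (0%), with a smallest adjusted p of 0.999. Without the fold threshold limma also gave 0 (0%), with a smallest adjusted p of 0.863. Before adjustment, p was under 0.05 for 0 names with the threshold and for 3 without it (1.89%). A two-sided exact permutation test, run name by name, put 6 names under 0.05 (3.77%). For no name did the 2 groups fail to overlap. Of the 159 names, 7 reached 5 reads throughout in 1 group only, 5 of them in controls and 2 in heat-stressed hearts. This is not proof of equality. The 95% interval of the log2 fold change lay within a doubling or halving (2-fold) for 97 of the 159 names (61.0%), and a change of that size remains possible for the others.

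**Figure D1:**
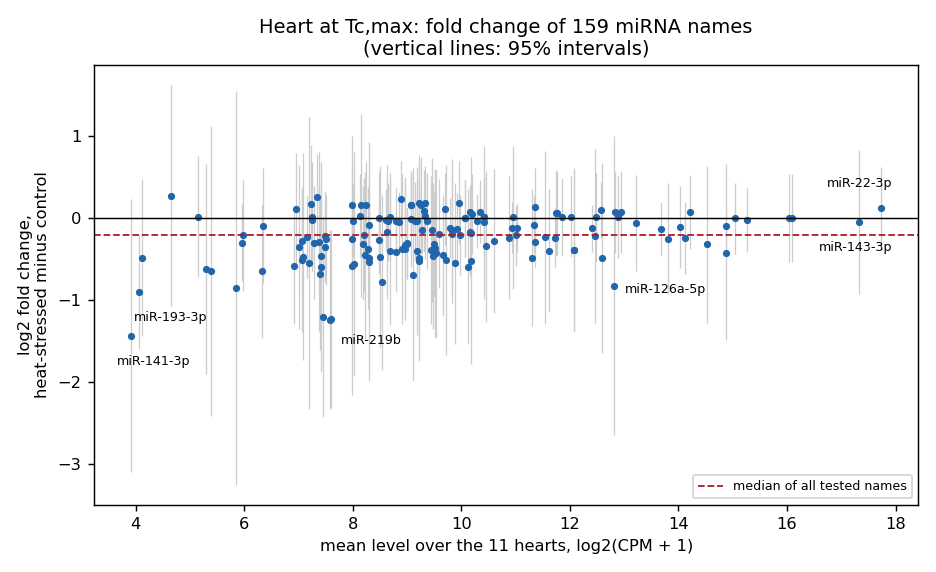
Log2 fold change (heat-stressed minus control) of the 159 tested names against their mean level in the 11 hearts, log2(CPM + 1), with 95% intervals as vertical lines and the median of all names as a dashed line. The points run from -1.44 for miR-141-3p to 0.27 for miR-429, around a median of -0.20, and both of these names reached 5 reads throughout in 1 group only.

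Most fold changes were small, with 134 of 159 below 0.5 in size and 4 above 1. The point estimates leaned downward on the CPM scale, where 117 names (73.6%) were lower in heat-stressed hearts and the median log2 fold change was -0.20. This lean moved with the scaling and with 2 libraries. The median was -0.05, with 54.1% of names lower, under median-ratio scaling, and -0.03, with 53.5% lower, under trimmed-mean scaling. It was likewise -0.03, with 53.5% lower, when rats 282 and 283 were left out, a choice made after seeing the data. All fold changes below are on the CPM scale and are best read against the median of -0.20.

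The levels of the most abundant miRNA overlapped between the groups. miR-22-3p took 14.6% to 32% of reads in heat-stressed hearts and 14.9% to 28.0% in controls. Its level ran from 17.16 through a median of 17.85 to 18.29 in heat-stressed hearts, against 17.80, 18.09, 17.18, 17.38 and 17.85 in controls. The ranges overlapped almost wholly, and the log2 fold change was 0.12 (95% interval -0.39 to 0.63). miR-143-3p, of smooth muscle, took 8.86% to 34.8% of reads in heat-stressed and 11% to 30.3% in control hearts. Its level was 16.43, 17.20 and 18.41 (lowest, median, highest) in heat-stressed hearts, and 17.16, 16.79, 18.21, 17.81 and 16.75 in controls. The fold change was -0.05 (-0.93 to 0.83), and the wide interval came with a wide spread in both groups. let-7f-5p, a member of a family that restrains growth, gave 0.08 (-0.37 to 0.53), and miR-10a-5p, encoded in a Hox cluster, -0.24 (-0.68 to 0.20). Among the other most abundant names, miR-133c and miR-30e had fold changes of 0.00 and miR-30a one of -0.02. miR-26a-5p had -0.42 (-1.49 to 0.66) and miR-27b-3p -0.32 (-1.28 to 0.64).

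Heart muscle miRNA did not separate the groups. All 8 names of the cardiomyocyte list (miR-1, miR-133, miR-208 and miR-499) were tested, 0 passed, and their median log2 fold change was 0.00, beside -0.20 over all names. With the other scalings it was 0.16 and 0.18, and without rats 282 and 283 it was -0.19. miR-133a, a repressor of smooth muscle genes in cardiac muscle, lay at 15.11, 16.21 and 16.44 (lowest, median, highest) in heat-stressed hearts and at 15.90, 16.43, 15.67, 15.90 and 16.30 in controls. Its fold change was 0.00 (-0.54 to 0.54). miR-1-3p, which damps growth of muscle precursors, gave 0.03 (-0.50 to 0.56), miR-208a 0.02 (-0.46 to 0.49) and miR-208b 0.01 (-0.87 to 0.88). The levels of miR-208a were within 0.014 of those of miR-3546 in all hearts, and the 2 hairpins overlap on opposite strands. miR-499-5p averaged 9.74 ± 0.756 in hearts of heat-stressed rats (SD, n = 6) and 9.93 ± 0.342 in those of controls (SD, n = 5). Rat 285 lay at 8.30 and every other heart between 9.61 and 10.41.

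The summed level of the cardiomyocyte list and that of the smooth muscle list ran opposite ways across rats, within both groups. Each sum came mostly from 1 name, miR-133a for the first and miR-143-3p for the second. In rat 285 these took 3.55% and 34.8% of reads. Heat-stressed rat 285 had the lowest cardiomyocyte sum, 42800 CPM, and the highest smooth muscle sum (miR-143 and miR-145), 353000 CPM. Heat-stressed rat 281 had 105000 and 97600 CPM. Among controls, rat 291 had 63800 and 309000 CPM, and rat 289 had 106000 and 115000 CPM. Heat-stressed rat 284 and control rat 293 also had high smooth muscle sums, at 263000 and 233000 CPM. The median smooth muscle sum was 156000 CPM in heat-stressed hearts and 150000 CPM in controls. Since CPM are shares of 1 total, a high share of an abundant miRNA lowers the others. The part of cell content in this spread was not tested.

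**Figure D2:**
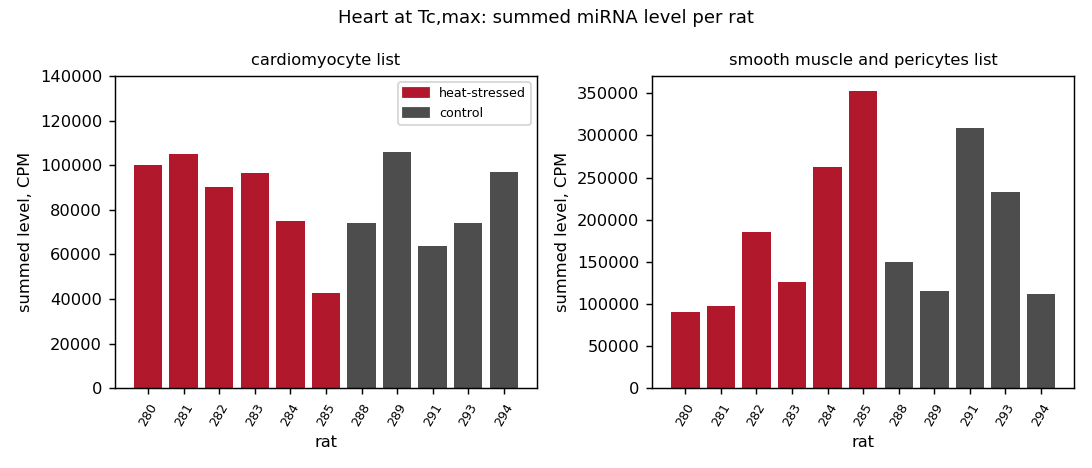
Summed level, in CPM, of the cardiomyocyte list (left panel) and of the smooth muscle and pericyte list (right panel) in each heart, heat-stressed rats in red and control rats in grey. Rat 285 has the lowest cardiomyocyte sum (42800 CPM) and the highest smooth muscle sum (353000 CPM), and both groups span similar ranges.

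miR-31a-5p had the largest SD of all tested names in heat-stressed hearts, 2.08, beside 2.03 in controls. Its level was 3.74, 3.89, 5.12, 4.00, 7.33 and 8.70 in heat-stressed rats 280 to 285. It was 7.38, 3.67, 8.09, 7.81 and 4.61 in control rats 288, 289, 291, 293 and 294. The 2 heat-stressed and 3 control hearts above 7 were those of rats 284, 285, 288, 291 and 293, and 4 of these 5 (all but rat 288) had the highest smooth muscle sums. The fold change was -0.85 (-3.25 to 1.55), and leaving out 1 heart moved it between -1.51 (without control rat 289) and -0.41 (without control rat 291). In kidneys of the same time point miR-31a-5p lay between 6.09 and 7.36 with heat and between 5.46 and 7.08 without, and in livers between 9.06 and 9.71 with heat and between 9.36 and 9.66 without. miR-451, of red blood cells, also spread widely, from 3.22 to 7.46 in heat-stressed hearts and from 3.97 to 7.22 in controls.

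The names nearest to the test were lower in heat-stressed hearts, and none passed after adjustment. miR-193-3p, of a family studied as a restraint on growth signals, lay at 3.95, 4.14, 3.24, 3.09, 3.82 and 3.74 in heat-stressed rats 280 to 285. It lay at 4.44, 3.97, 5.16, 4.61 and 4.61 in the 5 controls in order of rat number. All 6 heat-stressed hearts were below the control mean and the groups overlapped only through rat 281 and control rat 289. The log2 fold change was -0.90 (standard error 0.32, 95% interval -1.59 to -0.20, limma adjusted p = 0.863 without the threshold), and over the alternatives that kept the name it ran from -1.04 to -0.65. miR-193-3p passed the minimum of 5 reads through the controls alone, with as few as 2 reads in a heat-stressed heart, so that the filter favoured a lower value with heat. It was not tested when 5 reads were required in all 11 libraries.

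miR-219b and miR-219a-2 gave nearly equal values and count as 1 measurement. miR-219a is known from the brain, where it promotes myelination, and appears in the neuron list. miR-219b lay at 6.25, 6.84 and 8.15 (lowest, median, highest) in heat-stressed hearts, and at 7.03, 7.89, 8.49, 9.99 and 7.92 in controls. Control rat 293 was far above the others and the groups overlapped. The fold change was -1.23 (standard error 0.50, interval -2.32 to -0.15, limma adjusted p = 0.863 without the threshold), and without rat 293 it was -0.80. RefSeq places miR-219b at chr3:33516519-33516540 on the plus strand, within the span of Cercam, and miR-219a-5p close by on the minus strand at chr3:33516561-33516581. The sequence of miR-219b is shown since, of the names with a RefSeq sequence, it came nearest to the test. Its reads could not be separated from those of miR-219a-2, so that the values cannot be assigned to this sequence. The seed of miR-219b is in capitals, and miR-219a-5p has a different seed.
miR-219b: aGAUGUCCagccacaauucucg

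**Figure D3:**
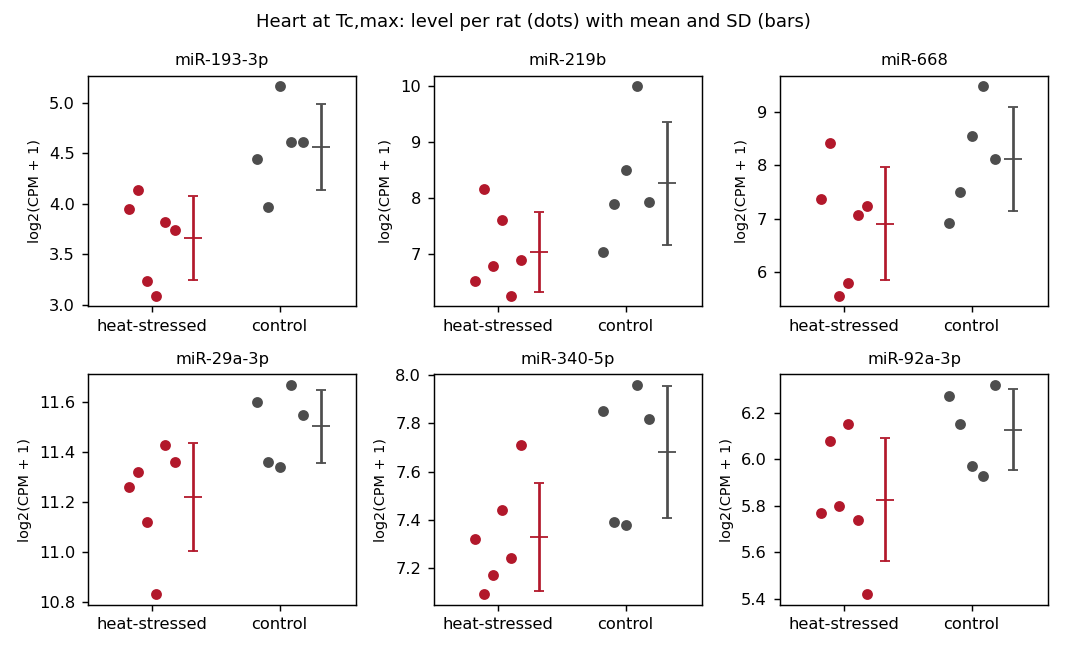
Level per rat, log2(CPM + 1), of 6 names among those nearest to the test, with heat-stressed rats at left in red, control rats at right in grey, and the mean ± SD beside the dots. For miR-193-3p 5 of the 6 heat-stressed hearts lie below every control, and in all 6 panels the groups overlap.

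Of the other names, 4 more had an exact permutation p under 0.05 before adjustment. Of these, miR-29a-3p, miR-340-5p and miR-92a-3p were picked for the text after their values were seen, as was miR-668. miR-29a-3p, a repressor of collagen genes, lay at 10.83, 11.29 and 11.43 (lowest, median, highest) in heat-stressed hearts and at 11.60, 11.36, 11.34, 11.67 and 11.55 in controls. The fold change was -0.29 (-0.60 to 0.03), exact permutation p = 0.0281, and -0.11 under trimmed-mean scaling. miR-340-5p gave -0.35 (-0.78 to 0.08), miR-92a-3p, of the cluster that also holds miR-17, -0.30 (-0.77 to 0.17), and miR-30a-5p -0.10 (-0.35 to 0.15). The last of these was the most even of the abundant names, at 14.69 to 14.91 in heat-stressed and 14.85 to 15.06 in control hearts. Its fold change was 0.05 under median-ratio and 0.07 under trimmed-mean scaling, the other way from the CPM scale. miR-668 gave -1.21 (-2.43 to 0.02) and miR-141-3p, an epithelial miRNA of the miR-200 family, -1.44 (-3.10 to 0.23). miR-141-3p was listed at 0 in rat 282, the shallowest library, and at 3.09 to 5.10 in the other heat-stressed hearts, against 4.19 to 5.17 in controls. Its fold change was -0.78 without rat 282 and -0.95 on the log2(CPM + 5) scale, and it reached 5 reads throughout in the controls only. miR-668 gave -0.59 without rats 282 and 283. The highest positive fold change was that of miR-429, of the same family, at 0.27 (-1.07 to 1.62). It reached 5 reads throughout in heat-stressed hearts only, and gave -0.26 without control rat 294.

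No miRNA linked to the heat shock response or to inflammation passed. In the heat shock list (miR-1, miR-21, miR-24 and miR-320), 0 of 7 tested names passed and the median was -0.12, beside -0.20 over all names. miR-21-5p, which responds to many stresses of the heart, lay at 11.33, 11.54 and 11.98 (lowest, median, highest) in heat-stressed hearts and at 11.92, 11.60, 11.84, 12.09 and 11.86 in controls. The groups overlapped, and the fold change was -0.24 (-0.59 to 0.12). miR-320 gave -0.58 (-1.29 to 0.13) and its arm miR-320-3p 0.11 (-0.59 to 0.80). Without control rat 293 the fold change of miR-320 was -0.29. That of miR-320-3p was -0.20 without rats 282 and 283. In the inflammation list 0 of 5 names passed, all 5 point estimates were negative, beside 117 of 159 (73.6%) over all names, and their median was -0.26. With the other scalings it was -0.11 and -0.09. miR-146a-5p, which damps Toll-like receptor signalling, gave -0.49 (-1.16 to 0.18) and miR-146b-5p -0.41 (-0.90 to 0.08).

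miRNA families and clusters gave 0 names past the test as well. The let-7 family had 16 tested names, 11 with positive and 5 with negative fold changes, a median of 0.04 and a range from -0.51 (let-7e) to 0.23 (let-7d-3p). The miR-30 family had 13 names with a median of -0.13, the miR-29 family 3 with -0.29 and the miR-181 family 7 with -0.25. With median-ratio and trimmed-mean scaling the miR-29 median was -0.13 and -0.11 and the miR-181 median -0.10 and -0.08. Without rats 282 and 283 they were -0.12 and 0.15. The miR-26 family (4 names), the family of miR-15, miR-16, miR-195 and miR-497 (5), the miR-23, miR-27 and miR-24 clusters (9) and the cluster of miR-17 and miR-92a with its paralogues (5) had negative point estimates throughout. Their medians were -0.45, -0.56, -0.34 and -0.47. Without rats 282 and 283 the first 3 of these 4 medians turned to 0.19, 0.22 and 0.17, and the last was -0.15. The metabolism list (miR-22 and miR-378a) had a median of 0.03 and the list of miR-99, miR-100 and miR-125 one of 0.07. Some medians near 0 turned with the scaling. Under median-ratio and trimmed-mean scaling the miR-30 family had 0.03 and 0.04, and the heat shock list 0.04 and 0.05. Without rats 282 and 283 the let-7 family had -0.18 and the metabolism list -0.14. Of the 25 lists, 23 had a tested name.

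The hearts of heat-stressed rats 282 and 283, and less so that of control rat 289, stood apart from the rest. In rat 283, 61 of 159 names lay more than 1 log2 unit below the control median, and in rats 282 and 289 this number was 51 and 19. Among the other 8 hearts this number was 1 to 8. Of the names, 47 were that low in both rats 282 and 283. Of these 47, 11 begin with C, 13 with U, 7 with A and 1 with G, and 15 had no sequence to read this from. Rat 282 was the shallowest library, at 237545 reads, rat 289 with 341881 reads the next shallowest, and rat 283 had 399990 reads, within the 361193 to 646567 of the other 8 hearts. The spread differed likewise. Over names, heat-stressed hearts had a median SD of 0.489 and control hearts one of 0.360. Without rats 282 and 283 the heat-stressed hearts had 0.324.

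Names that begin with CA were low in these hearts more often than names that begin with U, a pattern noticed in the data and given as a description with no test. Of 93 tested names with a RefSeq sequence, 18 begin with C, 12 of them with CA. The median deviation of the 12 from the control median was -1.83, -2.81 and -1.11 for rats 282, 283 and 289, and between -0.13 and 0.51 in the other 8 hearts. In the same 3 hearts it was -0.93, -1.18 and -0.40 for the 21 names that begin with A, -0.42, -0.64 and -0.22 for the 5 that begin with G, and -0.13, -0.16 and 0.00 for the 49 that begin with U. Of the 21 names that begin with A, 8 and 11 were more than 1 unit low in rats 282 and 283. Of the 12 that begin with CA, 10 were more than 1 unit low in each of rats 282 and 283. The exceptions were miR-28-3p and miR-133c. The levels of miR-133c were within 0.056 of those of miR-133a in all hearts, and its reads could not be separated from it. In the sequences below, chosen to show this, capitals mark the first 2 bases.
miR-126a-5p: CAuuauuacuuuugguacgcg
miR-130a-3p: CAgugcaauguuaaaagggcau
miR-142-5p: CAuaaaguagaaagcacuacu
miR-186-5p: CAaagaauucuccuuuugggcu
miR-191a-5p: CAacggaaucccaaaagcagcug
miR-322-5p: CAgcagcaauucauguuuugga
miR-28-3p: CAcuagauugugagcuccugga
miR-126a-3p: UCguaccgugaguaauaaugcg

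**Figure D4:**
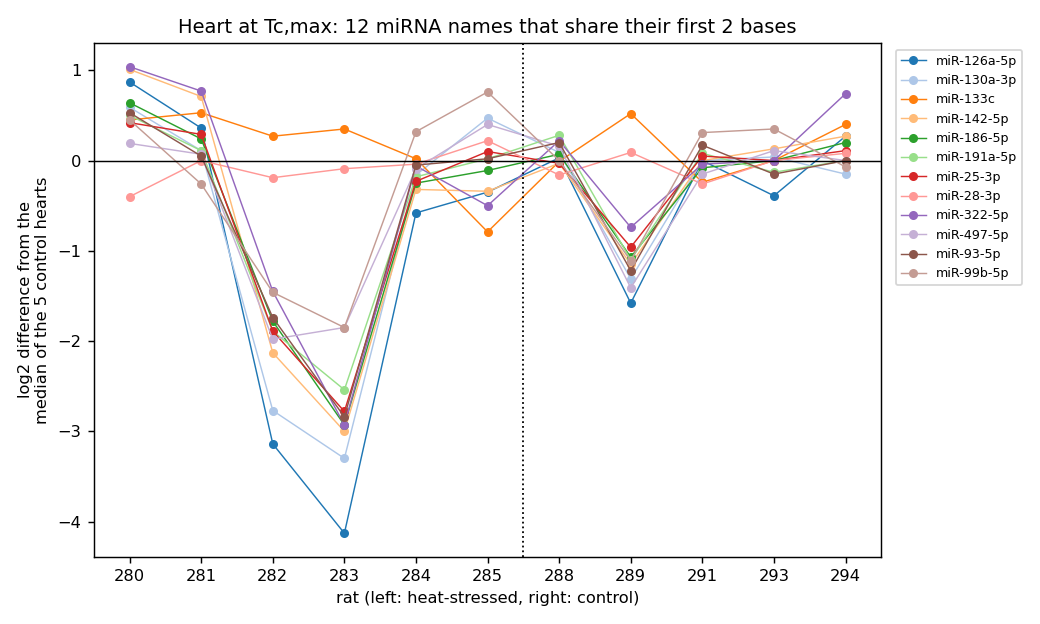
Log2 difference of each heart from the median of the 5 control hearts, for the 12 tested names that share their first 2 bases, with heat-stressed rats left of the dotted line and control rats right of it. In rats 282 and 283, 10 of the 12 names lie more than 1 unit low, and miR-126a-5p reaches -4.13 in rat 283.

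The arms of miR-126a, which are cut from 1 hairpin within Egfl7, an endothelial gene, show the pattern within a single locus. miR-126a-5p (chr3:29813182-29813202, plus strand) lay at 14.46, 13.96, 10.45, 9.46, 13.02 and 13.25 in heat-stressed rats 280 to 285. In the controls it lay at 13.63, 12.02, 13.59, 13.20 and 13.87. miR-126a-3p (chr3:29813219-29813240, plus strand) lay between 11.48 and 12.28 in heat-stressed and between 11.36 and 12.40 in control hearts. The difference between the arms (5p minus 3p) was 1.52 to 2.61 in 8 hearts. It had the opposite sign in the hearts of rats 282 (-1.63), 283 (-2.81) and 289 (-0.38). The fold change of miR-126a-5p was -0.83 (-2.65 to 1.0), and without rats 282 and 283 it was 0.41. That of miR-126a-3p was 0.02 (-0.46 to 0.49).

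**Figure D5:**
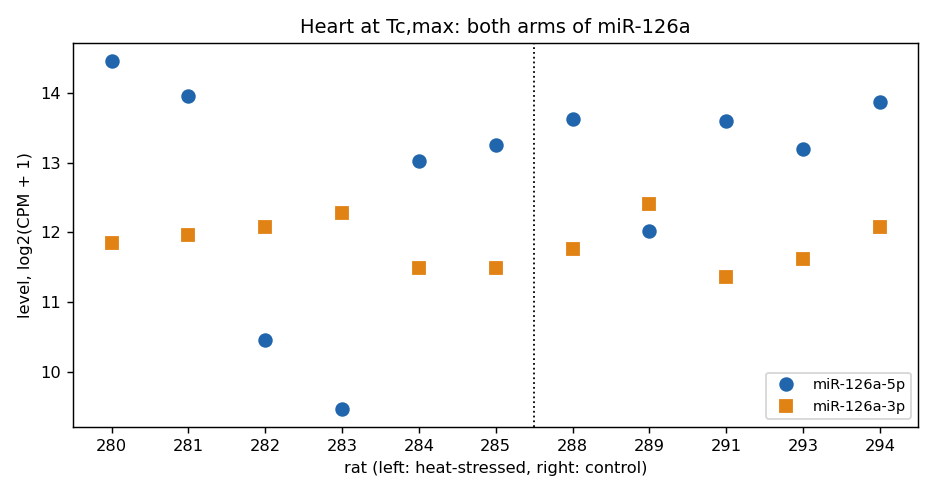
Level, log2(CPM + 1), of miR-126a-5p (circles) and miR-126a-3p (squares) in each heart, heat-stressed rats left of the dotted line and control rats right of it. The 5p arm falls below the 3p arm in rats 282, 283 and 289, while the 3p arm stays between 11.36 and 12.40.

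Not every low name begins with C. Of the 49 names that begin with U, 13 were more than 1 unit low in both rats 282 and 283, among them miR-26a-5p, miR-27b-3p, miR-195-5p and miR-30c-5p. miR-26a-5p took 1.34% and 0.715% of reads in rats 282 and 283 and 2.02% in rat 289, against 3.55% to 4.93% in the other hearts. The miR-30 family shows that a shared seed did not go with a shared deviation. In rats 282 and 283, miR-30c-5p deviated from the control median by -1.39 and -2.55, and miR-30a-5p by -0.11 and -0.07. Seeds are in capitals.
miR-30a-5p: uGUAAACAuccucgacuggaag
miR-30c-5p: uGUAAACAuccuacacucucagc
Of the 13 low names that begin with U, miR-3590-5p is the reverse complement of miR-130a-3p without its last base. It lies on the other strand of the same place, at chr3:90229241-90229261 (plus strand) beside chr3:90229240-90229261 (minus strand). It lay at 4.71 and 4.21 in rats 282 and 283, where miR-130a-3p lay at 5.80 and 5.27. miR-3588 and miR-125b-5p are exact reverse complements at chr11:29732588-29732609, and their levels agreed within 0.021 in all 11 hearts. Whether the counting used strand is not given in the sources used here, so that neither pair can be separated. miR-3590-5p therefore cannot be taken as an exception independent of miR-130a-3p, which begins with CA.
miR-3590-5p: ugcccuuuuaacauugcacug
miR-3588: ucacaaguuagggucucaggga
miR-125b-5p: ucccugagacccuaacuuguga

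The livers of rats 282, 283 and 289, and the kidneys of rats 282 and 289, did not deviate in this way to the same extent. Rat 283 had no kidney library. In the livers of rats 282, 283 and 289 the median deviation of the 12 names that begin with CA was -0.08, -0.19 and -0.10. In the kidneys it was -0.45 in rat 282 and -0.05 in rat 289, and in all 5 heat-stressed kidneys it lay between -0.72 and -0.31. miR-126a-5p, named here for its values in the heart, lay at 11.88 to 12.36 in heat-stressed kidneys, with 11.97 in rat 282. In control kidneys it lay at 12.75 to 13.06. Its log2 fold change was -0.81 in the kidney and -0.83 in the heart, where it turned positive without rats 282 and 283. The heart groups overlapped, at 9.46 to 14.46 with heat and 12.02 to 13.87 in controls. No test of heat within the kidney alone is given here, and how many other names separated the kidney groups was not counted. In livers miR-126a-5p lay at 13.02 to 13.32 with heat and at 12.94 to 13.29 in controls, with 13.10 and 13.19 in rats 282 and 283. White cell and endothelial list sums were low in the same hearts. The endothelial sum (4 of 4 names of miR-126 tested) was 8110 and 8360 CPM in rats 282 and 283, against 12900 to 28600 CPM in the other heat-stressed hearts and 12400 to 21800 CPM in controls. Of its members, miR-126a-5p alone was low there. miR-126a-3p lay at 12.08 and 12.28 and miR-126a, the name without an arm, at 10.21 and 10.40 in these rats, against 11.36 to 12.40 and 9.58 to 10.50 in controls. The white cell sum was 623 and 478 CPM in rats 282 and 283, against 1200 to 2830 CPM in the other heat-stressed hearts and 1110 to 2380 CPM in controls. The most abundant member of that list, miR-150-5p, lay at 8.10 and 7.56 in these rats, while miR-142-3p lay at 5.56 and 5.87, above the 4.68 to 5.10 of the other heat-stressed hearts. The part of the first bases, of depth or of cell content in the group comparison was not tested. Without rats 282 and 283, and without rats 282, 283 and 289, limma again gave 0 of 159 names.

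The heat effect of the heart at Tc,max was not shown to differ from that at 24 h, or from those of the kidney and liver at Tc,max. The test of the difference gave 0 of 162 names against the heart at 24 h (0%), 0 of 181 against the kidney (0%) and 0 of 178 against the liver (0%). Without the fold threshold it also gave 0, with smallest adjusted p of 0.613, 0.993 and 0.753, and with 4, 3 and 5 names at an unadjusted p under 0.05. The nearest names were miR-146b-5p, miR-320 and miR-205. miR-205 was below the filter in the heart, at 0 to 3.24 with heat and 2.57 to 3.54 without. It entered through the heat-stressed livers alone, at 4.9 to 7.57, against 0 to 5.45 in control livers. The filter therefore favoured a higher value with heat in the liver. Its difference was -3.47 (standard error 1.14, limma adjusted p = 0.753 without the threshold). For miR-146b-5p the log2 fold change was -0.41 at Tc,max and 0.63 at 24 h, a difference of -1.04 (standard error 0.36, limma adjusted p = 0.613). For miR-320 it was -0.58 in the heart and 0.54 in the kidney, a difference of -1.12 (standard error 0.38, limma adjusted p = 0.993). The heart value was -0.29 without control rat 293. The arm miR-320-3p gave 0.11 in the heart and 0.28 in the kidney, a difference of -0.17 (standard error 0.36). miR-193-3p gave -0.90 in the heart at Tc,max, 0.24 in the heart at 24 h, -0.09 in the kidney and 0.05 in the liver, and none of these differences passed. Its level was far lower in the heart (3.09 to 4.14 with heat, 3.97 to 5.16 without) than in the kidney (6.88 to 7.50 with heat, 7.07 to 7.54 without).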

How the data were processed

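The authors trimmed the small RNA reads with cutadapt 2.6, matched them perfectly to miRBase rat miRNA and deposited log2 values, log2(CPM + 1), for 185 names. The base and the added 1 were inferred from the values: 461 of 461 low values were whole reads within 0.05. Recovered reads served for depth, the filter and limma voom. The authors tested counts, and limma 3.58.1 (R 4.3.3) took that place here, with treat against a 25% fold change, a trended spread and Benjamini-Hochberg adjustment, fitting these 2 groups only. Named were the 10 most abundant names, those at unadjusted p under 0.05, the 5 with the largest SD with heat and examples of lists. Other names were added later and not all are marked as such. miR-146b-5p, miR-208a, miR-208b and miR-499-5p are among those without a mark. The members, lists and tests were chosen with earlier results of these data known. The fit was tested on simulated reads. Changed names there were limited to low and middle abundance, since changing abundant names first made unchanged names pass, a limit of CPM values. The p-values measure spread between rats. Rat numbers were taken to pair organs of 1 animal. Median correlations of deviations between heart and the same-number library were 0.03 for kidney and -0.0166 for liver. Between different rat numbers they were -0.00923 and 0.000106, so that the correlations did not show the pairing. Among 25 replicate pairs none was a copy. Counting limits cover counting error only. Of the columns, which hold miRNA names, 0 were left unused. Python 3.11.15, numpy 2.4.6, pandas 2.3.3 and matplotlib 3.10.9 were used.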

Additional observations from a re-analysis of the deposited data

Results flagged for a closer look

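Among the named miRNA, each group of 5 or 6 hearts was examined for a single heart far from the others, 162 groups in all. Of these, 19 had one, and control rat 289 accounted for 13 of the 19. Chance gives about 1 in 20 groups, but the count cannot be set against this, since some names were picked for the pattern and others share reads or move together. Without the names chosen after their values were seen, 13 of 128 groups had such a heart, and 8 of these were rat 289. Its log2 level was apart for miR-30c-5p (9.78), miR-26b-5p (8.70), miR-25-3p (8.71), miR-186-5p (9.57), miR-26a-5p (14.30), miR-93-5p (6.32), miR-130a-3p (7.26), miR-142-5p (7.60), miR-27b-3p (13.96), miR-497-5p (6.37) and miR-99b-5p (10.66), and also for miR-222 (5.39) and miR-142-3p (6.15). Rat 289 was low for all of these except miR-142-3p, for which it was high. The low names overlap those that were low in heat-stressed rats 282 and 283, and these 2 hearts did not stand alone in their group. For miR-142-3p, rats 282 and 283 were also high among heat-stressed hearts, at 5.56 and 5.87.

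The other 6 were single names. Among heat-stressed hearts, rat 285 was apart for miR-499 (6.73) and miR-499-5p (8.30), and rat 283 for miR-29a (8.17). Among controls, rat 293 was apart for miR-19b-3p (7.34), rat 288 for miR-146a-5p (8.97) and rat 294 for miR-150-5p (10.35).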

How the results depend on the processing

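The count of 0 names past the test was the same under all 27 alternatives run, with a smallest adjusted p of 0.863 over them and at most 6 names at an unadjusted p under 0.05. They were median-ratio and trimmed-mean scaling, no filter (185 names), at least 5 reads in all 11 libraries (152 names), log2(CPM + 5), voom, all heart groups together, total reads as a covariate, no fold threshold, no trend, mature arms alone (92 names), the exact permutation test, leaving out each of the 11 libraries in turn, and 4 fits without the hearts that stood apart, chosen after seeing the data. Of 81 named miRNA, 0 passed in any of these. The sign of the fold change turned in at least 1 setting for 50 of the 81. The move exceeded the spread between rats for 4 (miR-29c-3p, miR-30d-5p, miR-30a-5p and miR-21), all under another scaling. With the rat as a replicate block, the differences from kidney and liver again gave 0 names, and no call changed. Depth limits the low names most: 26 names were below the filter and not tested.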
